A study of Homo sapiens with 6 samples.

Results

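The miR-29 family comprises 3 mature 3p miRNAs, miR-29a, miR-29b and miR-29c, cut from 4 hairpins in a pair of gene clusters. The members here are every arm of miR-29a, miR-29b and miR-29c listed in the deposited count tables, which gave 7 of 2575 entries: 3 3p arms (hsa-miR-29a-3p, hsa-miR-29b-3p and hsa-miR-29c-3p) and 4 5p arms (hsa-miR-29a-5p, hsa-miR-29b-1-5p, hsa-miR-29b-2-5p and hsa-miR-29c-5p). They were chosen by name, not by a measured value, but with earlier results of these data known. The libraries are labelled as miRNA libraries of exosomes, the vesicles that cells release, from conditioned medium of HCT116, a human colorectal cancer line grown adherently and used at passage 16 to 19. For the 3 libraries titled ETBF, enterotoxigenic Bacteroides fragilis (ETBF), a gut bacterium that secretes a toxin, was kept with the cells for 6 h at 500 bacteria per cell (multiplicity of infection). For the 3 libraries titled untreated, cells were given bacterial medium alone.

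Titles were used to assign the groups, although the file of each of the 6 libraries bears the name of the opposite group. Should the file names be correct, each direction given here turns round, with unchanged size, error and p-value. Total counts were 250425, 221981 and 417321 in titled ETBF replicates 1, 2 and 3, and 200207, 368923 and 293445 in titled untreated replicates 1, 2 and 3. These are shallow libraries, so 3 counts, taken as the floor of detection, correspond to 9.29 to 13.5 CPM (counts scaled to the effective library size after TMM normalisation) in the titled ETBF libraries and 8.29 to 14.6 CPM in the titled untreated libraries. 3 entries whose sequences overlap structural RNAs, miR-7641, miR-6087 and miR-1246, together took 0.531% to 0.927% of the counts of titled ETBF libraries and 16.1% to 28.3% of those of titled untreated libraries.

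A miRNA pairs with messenger RNAs mainly through its seed, bases 2 to 8 from the 5′ end, while loaded in an Argonaute protein. The miR-29 family is known for repressing collagens and other extracellular matrix genes and the de novo DNA methyltransferases DNMT3A and DNMT3B, and it is often described as low in fibrosis and in tumours. The sequences of the 7 entries show what the counting had to tell apart. They are the RefSeq mature sequences (GRCh38.p14), for which 7 of 7 entries matched, with the seed in capitals:

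miR-29a-3p: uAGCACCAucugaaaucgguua

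miR-29b-3p: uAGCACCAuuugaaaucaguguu

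miR-29c-3p: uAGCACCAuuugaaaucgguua

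miR-29a-5p: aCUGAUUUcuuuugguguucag

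miR-29b-1-5p: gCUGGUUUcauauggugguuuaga

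miR-29b-2-5p: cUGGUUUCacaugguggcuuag

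miR-29c-5p: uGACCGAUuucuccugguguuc

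The 3p arms carry the seed AGCACCA, which no other of the 2370 distinct mature miRNA names in that table has at bases 2 to 8. miR-29c-3p differs from miR-29a-3p by 1 substitution, C10U, counted from the 5′ end, and miR-29b-3p differs from miR-29a-3p by C10U, G18A, U21G and A22U over the 22 bases they share. miR-29b-3p is 23 bases long and its bases 18 to 23 read AGUGUU, a motif described as directing miR-29b to the nucleus in human cells. On the single RNA strand, 13 of the 2370 mature names (0.549%) hold those letters, and the other miR-29 entries do not. How the authors' processing treated mismatches is not given in the sources used here, so the assignment of reads between miR-29a-3p and miR-29c-3p is uncertain.

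miR-29b-3p has a pair of loci. In GRCh38.p14, which is not the build the submitters' processing notes name, MIR29A (chr7:130876747-130876810) and MIR29B1 (chr7:130877459-130877539) lie 648 bases apart on the minus strand of chromosome 7. MIR29C (chr1:207801852-207801939) and MIR29B2 (chr1:207802443-207802523) lie 503 bases apart on the minus strand of chromosome 1. In GENCODE release 29 the chromosome 1 hairpins overlap exons of the long non-coding RNA gene MIR29B2CHG, and the chromosome 7 hairpins overlap an exon of LINC-PINT and lie in an intron of AC016831.6, both long non-coding RNA genes on the same strand. The miR-29b hairpins show why only their 5p arms tell the copies apart; both arms are in capitals:

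MIR29B1: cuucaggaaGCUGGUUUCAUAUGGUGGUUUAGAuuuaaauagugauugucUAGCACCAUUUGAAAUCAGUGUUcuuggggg

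MIR29B2: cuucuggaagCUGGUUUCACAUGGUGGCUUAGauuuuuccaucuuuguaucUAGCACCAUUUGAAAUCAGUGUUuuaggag

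The 3p arms of the copies are the same sequence, so miR-29b-3p cannot be assigned to a cluster from its mature reads. The 5p arms differ by U11C and U19C, counted from the 5′ end of miR-29b-1-5p, over the 22 bases they share.

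In these exosomes the family was almost wholly miR-29a-3p, which held 89.6% to 91.8% of family counts in the titled ETBF libraries and 90.4% to 94.8% in the titled untreated libraries. miR-29b-3p came next, with 4.42% to 9.15%, and miR-29c-3p stood close to the floor. The order of the 3p arms was the same in 6 of 6 libraries, and their ranges over the libraries did not overlap. The whole family took 0.370% to 0.462% of counts in titled ETBF libraries and 0.353% to 0.585% in titled untreated libraries.

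miR-29a-3p held 1038, 826 and 1417 counts in titled ETBF replicates 1, 2 and 3, which are 3496, 3726 and 4389 CPM. It held 638, 1972 and 1629 counts in titled untreated replicates 1, 2 and 3, which are 3104, 5447 and 5217 CPM. Untreated replicate 1 was the lowest of the 6 libraries and the other untreated replicates the highest, so the groups overlapped. By level it ranked between 26 and 31 in the titled ETBF libraries and between 23 and 36 in the titled untreated libraries.

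miR-29b-3p held 106, 74 and 116 counts in titled ETBF replicates 1, 2 and 3, or 357, 333.8 and 359.3 CPM. It held 60, 95 and 76 counts in titled untreated replicates 1, 2 and 3, or 291.9, 262.4 and 243.4 CPM. In CPM, which is TMM-scaled, each titled ETBF library was above each titled untreated one. As a share of total counts the groups overlapped, with titled ETBF replicate 3 (0.0278%) below titled untreated replicate 1 (0.0300%). Its rank was 94 to 97 in the titled ETBF libraries and 99 to 104 in the titled untreated libraries.

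miR-29c-3p held 6, 6 and 8 counts in titled ETBF replicates 1, 2 and 3, or 20.2, 27.1 and 24.8 CPM, against 3, 8 and 5 counts in titled untreated replicates 1, 2 and 3, or 14.6, 22.1 and 16.0 CPM. The groups overlapped. At this depth the exact 95% Poisson interval of the lowest value, 3 counts, runs from 0.619 to 8.77 counts, and that of the highest, 8 counts, from 3.45 to 15.8, so differences between libraries were not detectable. Intervals and floors here cover counting error only, since no molecular identifiers are described.

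**Figure D1:**
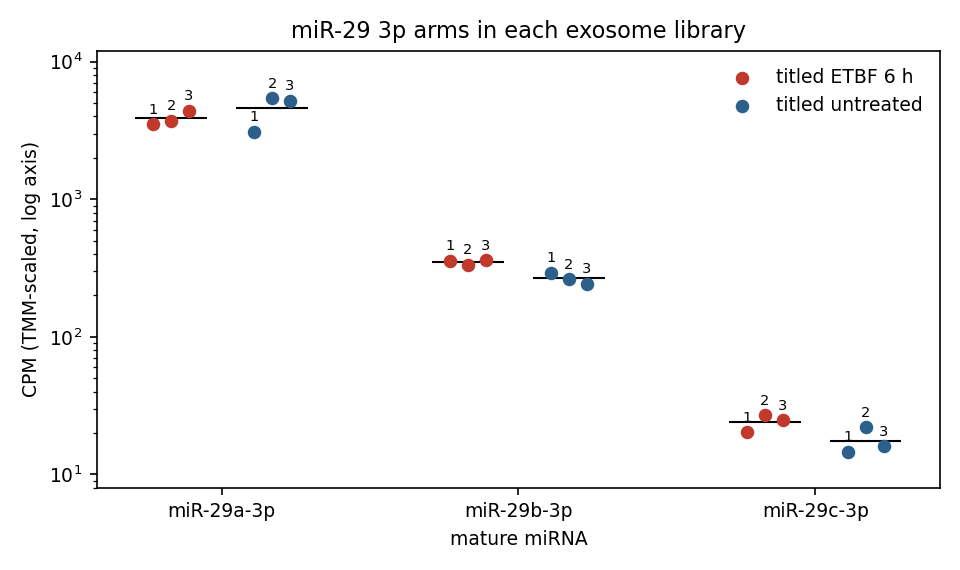
Level of the 3p arms in each library, in CPM on a log axis; points are libraries, numbers their replicates, and lines group means (n = 3 each), with titled ETBF in red and titled untreated in blue. miR-29a-3p lies between 3104 and 5447 CPM, miR-29b-3p between 243.4 and 359.3 CPM and miR-29c-3p between 14.6 and 27.1 CPM.

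Reads with several positions bear on miR-29b-3p. The entry miR-199a-3p, from 2 loci, and miR-199b-3p, from 1, share a mature sequence, and the ratio of their counts lay between 2 and 2.002 in 6 of 6 libraries. If each miR-29b-3p read had been counted at both loci, every count would be even: 5 of its 6 counts were, and 4 of 6 for miR-29a-3p, which has 1 locus. Among library values of at least 10 counts, 64.1% of 153 were even for entries with 2 RefSeq loci and 50.8% of 852 for entries with 1. Of the other entries checked, miR-16-5p had 3 even counts of 6 and miR-7-5p 2 of 6. Counting at each locus forces even counts only where the number of loci is even. That number is not given here for miR-16-5p or miR-7-5p, so nothing is concluded from them. Given the miR-199a-3p ratio, the level of miR-29b-3p may be raised by up to its number of loci, alike in both groups, and how much was not tested.

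The 5p arms, the strands usually discarded, were scarce and did not follow the order of the 3p arms. miR-29c-5p held 4, 4 and 2 counts in titled ETBF replicates 1, 2 and 3 and 3, 5 and 6 in titled untreated replicates 1, 2 and 3. miR-29a-5p held 4, 2 and 0 counts in the titled ETBF libraries and 0 in each titled untreated library. miR-29b-2-5p held 0, 1 and 0 counts in the titled ETBF libraries and 2 in each titled untreated library, and miR-29b-1-5p held at most 1 count in a library. All of these lie near or under the floor of 3 counts, so no fold change is given.

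Summed over the 6 libraries, the 3p arm made up 99.9% of the arms of MIR29A (7520 of 7526 counts, exact binomial 95% interval 99.83% to 99.97%) and 60.0% of those of MIR29C (36 of 60 counts, 46.5% to 72.4%). The intervals do not overlap, and the share of the 3p arm of MIR29C was lower than that of MIR29A in each library, at 60.0% to 80.0% in titled ETBF libraries and 45.5% to 61.5% in titled untreated libraries. The 36 miR-29c-3p counts depend on the assignment of reads between miR-29a-3p and miR-29c-3p. That assignment is uncertain, and the intervals do not cover it. As assigned, the clusters did not stand in the same order in the pooled 3p and 5p counts. miR-29c-3p was 0.476% of the counts of miR-29a-3p and miR-29c-3p (36 of 7556, exact binomial 95% interval 0.334% to 0.659%), whereas the 5p arms of the chromosome 1 cluster were 79.5% of all 5p counts (31 of 39, 63.5% to 90.7%). By titled group that 5p share was 11 of 18 counts in ETBF (61.1%, 35.7% to 82.7%) and 20 of 21 in untreated (95.2%, 76.2% to 99.9%). These intervals overlap, but they pool the libraries of a group and leave out the spread between them. A difference between the groups in this share was not tested. The ETBF interval includes equal shares, and titled ETBF replicate 1 held 4 counts from each cluster, so the pooled 5p order rests mainly on the untreated libraries. For the copies of miR-29b, 1 of 2 5p counts came from miR-29b-2-5p in the titled ETBF libraries and 6 of 7 in the titled untreated libraries, too few to compare.

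**Figure D2:**
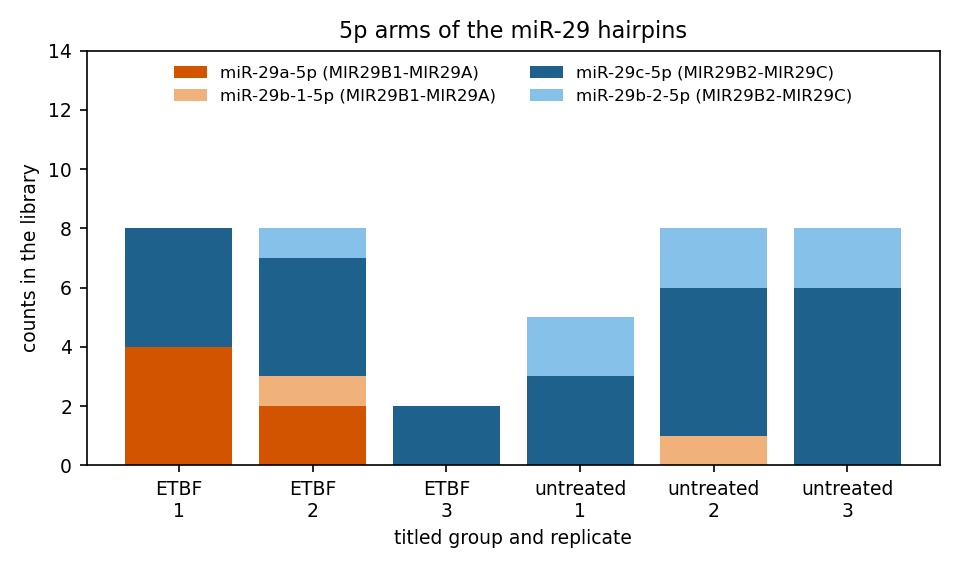
Counts of the 5p arms in each library, stacked by entry, with titled ETBF libraries left of titled untreated ones; orange shades are arms of the chromosome 7 cluster and blue shades arms of the chromosome 1 cluster. Libraries hold 2 to 8 such counts, and the chromosome 7 arms hold 4, 3 and 0 in titled ETBF replicates 1, 2 and 3 and 0, 1 and 0 in titled untreated replicates 1, 2 and 3.

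The study compared exosomes of ETBF-treated and untreated cells. No miR-29 entry passed the test between the titled groups. Of the 7 entries 2 had enough counts to be tested, and 0 of those 2 were called, against 14.4% of all 195 tested entries (28 entries, edgeR's quasi-likelihood test, Benjamini-Hochberg adjusted p under 0.05). At an unadjusted p under 0.05 there was 1 member, miR-29b-3p, and 66 of all tested entries, and DESeq2 and limma-voom likewise called 0 members. The median log2 fold change over all tested entries was -0.03. Sequencing of bulk vesicles cannot tell fewer vesicles carrying a miRNA from less of it per vesicle.

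miR-29a-3p averaged 3870 ± 463.6 CPM in the titled ETBF libraries and 4589 ± 1291 CPM in the titled untreated libraries (SD, n = 3 each), which is -0.25 as a log2 fold change (standard error 0.20; edgeR, adjusted p = 0.42). The difference was smaller than the spread inside the untreated group. That spread was wide for a miRNA of this level: the SD of log2 CPM was 0.17 in the titled ETBF libraries and 0.45 in the titled untreated libraries, the third widest untreated SD among 104 entries averaging at least 250 CPM, whose median was 0.12. Without untreated replicate 1, which is also the shallowest library and the one with the largest share of structural RNA overlaps, the log2 fold change was -0.44 and passed (edgeR, adjusted p = 0.0269). The part of depth or of those entries in its low value was not tested.

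miR-29b-3p averaged 350.0 ± 14.1 CPM in the titled ETBF libraries and 265.9 ± 24.4 CPM in the titled untreated libraries (SD, n = 3 each). The fitted log2 fold change was 0.41 (1.33-fold, standard error 0.13; edgeR, adjusted p = 0.0601). In CPM the groups of libraries did not overlap, as was the case for 39.0% of all tested entries (76 of 195). As shares of total counts, without TMM scaling, the groups overlapped for miR-29b-3p. The call differed between settings while the fold stayed positive. By edgeR the log2 fold change was 0.48 with upper-quartile scaling (adjusted p = 0.0434), 0.46 without the 3 structural RNA entries (adjusted p = 0.0463) and 0.34 with library size only (adjusted p = 0.462). The adjusted p was 0.112 with DESeq2, and over all settings it ran from 0.0434 to 0.462.

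miR-29c-3p did not pass the filter on low counts. Without that filter the fitted log2 fold change was 0.37 (standard error 0.55; edgeR, adjusted p = 0.699), so a difference between the groups was not detectable at this depth.

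**Figure D3:**
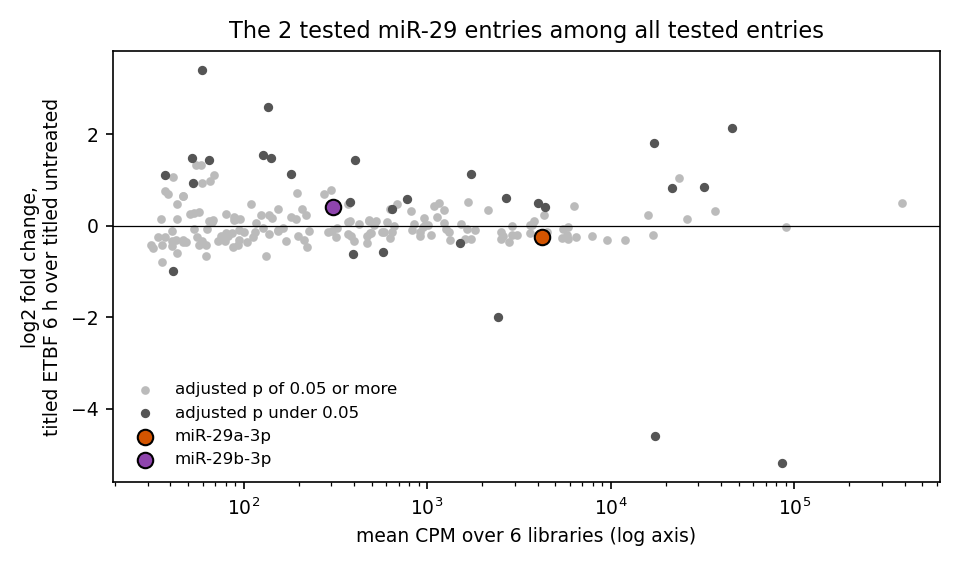
Log2 fold change of each of the 195 tested entries, titled ETBF over titled untreated, against mean CPM over 6 libraries on a log axis; dark points passed an adjusted p of 0.05. miR-29b-3p lies at 0.41 and miR-29a-3p at -0.25, both among entries that did not pass.

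Ratios inside a library compare the paralogues without any scaling between libraries. Between the clusters, miR-29a-3p held 173, 137.7 and 177.1 times the counts of miR-29c-3p in titled ETBF replicates 1, 2 and 3, against 212.7, 246.5 and 325.8 times in titled untreated replicates 1, 2 and 3. Each titled ETBF library was below each titled untreated library. The mean log2 ratio was 7.34 ± 0.20 in ETBF and 8.01 ± 0.31 in untreated (SD, n = 3 each), a difference of -0.67 with a standard error of 0.21 (exact permutation test, two-sided, p = 0.1, adjusted p = 0.3 over 3 ratios), where 0.1 is the smallest p the design allows. The denominators are 3 to 8 counts, and their assignment apart from miR-29a-3p reads is uncertain. Summed by group, miR-29c-3p was 0.606% of the counts of both in ETBF (20 of 3301, exact binomial 95% interval 0.371% to 0.934%) and 0.376% in untreated (16 of 4255, 0.215% to 0.610%). These intervals overlap, and they leave out the spread between libraries.

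miR-29a-3p held 9.79, 11.2 and 12.2 times the counts of miR-29b-3p in titled ETBF replicates 1, 2 and 3, against 10.6, 20.8 and 21.4 times in titled untreated replicates 1, 2 and 3. Untreated replicate 1 fell within the ETBF range, and the other untreated libraries stood well above it. The mean log2 ratio was 3.46 ± 0.16 in ETBF and 4.07 ± 0.57 in untreated (SD, n = 3 each), a difference of -0.61 with a standard error of 0.34 (exact permutation test, two-sided, p = 0.3, adjusted p = 0.45 over 3 ratios). Without untreated replicate 1 the difference was -0.94 and the groups did not overlap. With miR-29b-3p counts divided by its 2 loci the ratios were 19.6, 22.3 and 24.4 in ETBF and 21.3, 41.5 and 42.9 in untreated, with the same difference between groups.

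The remaining ratio, of miR-29c-3p over miR-29b-3p, was alike in range, at 0.0566, 0.0811 and 0.0690 in titled ETBF replicates 1, 2 and 3 and 0.05, 0.0842 and 0.0658 in titled untreated replicates 1, 2 and 3. The difference of mean log2 ratios was 0.06 with a standard error of 0.26 (exact permutation test, two-sided, p = 0.8, adjusted p = 0.8 over 3 ratios). The groups overlapped fully, and a difference within that error was not detectable.

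**Figure D4:**
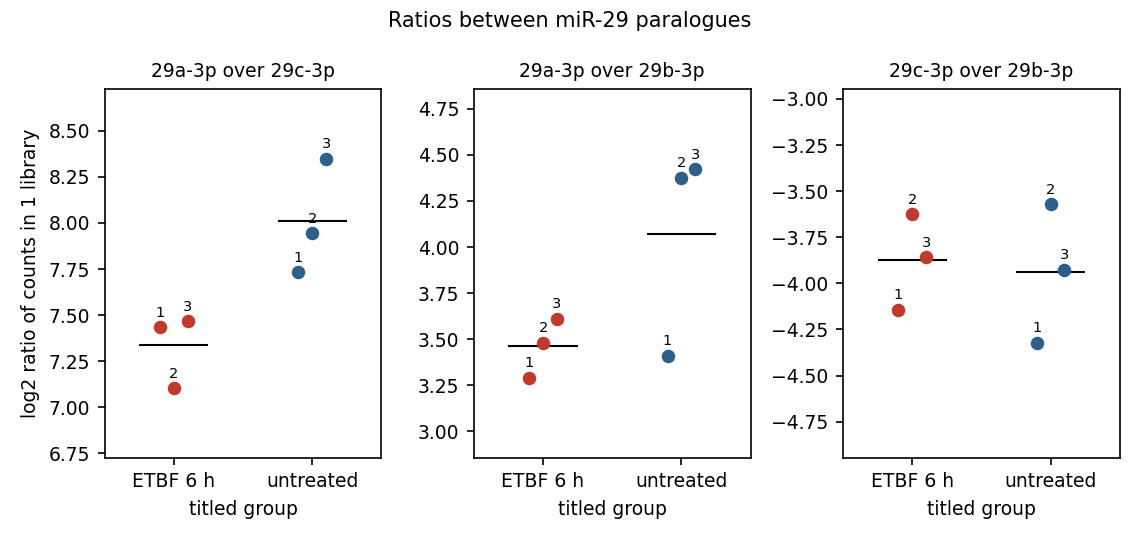
Log2 ratio of counts between miR-29 paralogues in each library; points are libraries, numbers their replicates, and lines group means (n = 3 each), with each panel spanning 2 log2 units. The ratio of 29a-3p over 29c-3p is lower in each titled ETBF library than in each titled untreated one, and for 29a-3p over 29b-3p titled untreated replicate 1 sits among the titled ETBF libraries.

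The entries whose levels ran most like those of each member were named by Pearson's r of log2(CPM + 1) over the 6 libraries, which share their scaling and fall in 2 groups, so r is a description only. For miR-29a-3p they were miR-106b-3p (r = 0.930), miR-133b (0.910) and miR-224-5p (0.907). For miR-29b-3p they were miR-320a (0.980), miR-320b (0.976) and let-7f-5p (0.936), and for miR-29c-3p they were miR-200a-5p (0.932), miR-584-5p (0.919) and miR-941 (0.917). Between the members r was -0.58 between miR-29a-3p and miR-29b-3p, 0.16 between miR-29a-3p and miR-29c-3p and 0.57 between miR-29b-3p and miR-29c-3p. Of the entries most like miR-29b-3p, miR-320a averaged 730.5 ± 23.1 CPM in ETBF and 563.8 ± 21.8 CPM in untreated (SD, n = 3 each, edgeR, adjusted p = 0.0286).

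Other miRNAs known to repress chromatin modifiers, the miR-148 and miR-26 families among them, were listed beside miR-29. Of 10 such miRNAs 9 were tested, with a median log2 fold change of 0.15. Over all 195 tested entries 14.4% passed. Of the 9, 1 was higher in the libraries titled ETBF, 0 were lower and 8 did not pass. The one was miR-148b-3p, of the family that represses DNMT1, at 3280 ± 583.3 CPM in ETBF and 2132 ± 261.1 CPM in untreated (SD, n = 3 each, log2 fold change 0.62, standard error 0.14, edgeR, adjusted p = 0.0208). miR-148a-3p, the most abundant, was at 455587 ± 192477 CPM in ETBF and 319853 ± 66722 CPM in untreated, and miR-26a-5p, a repressor of EZH2, at 27361 ± 2237 CPM in ETBF and 24738 ± 1598 CPM in untreated (edgeR, adjusted p = 0.29 and 0.413).

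Of 16 miRNAs linked to matrix and TGF-beta signalling, all 16 were tested and 0 passed in either direction by edgeR, with a median of -0.07. Over all 195 tested entries 14.4% passed. At an unadjusted p under 0.05 there were 5 of the 16, beside 66 of all 195. DESeq2 called 1 of the 16 and limma-voom 0, where each called 25 of all 195. miR-21-5p, described as promoting fibrosis, was at 88717 ± 3318 CPM in ETBF and 90756 ± 1493 CPM in untreated (edgeR, adjusted p = 0.851). miR-192-5p was at 8558 ± 552.9 CPM in ETBF and 10597 ± 500.1 CPM in untreated (edgeR, adjusted p = 0.0587).

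Epithelial markers, which are not particular to HCT116, were abundant, and 10 of 10 were listed. Together they reached 38431 to 43837 CPM in the titled ETBF libraries and 46180 to 47642 CPM in the titled untreated libraries. miR-203a was the most abundant, at 10657 ± 965.9 CPM in ETBF and 13194 ± 1135 CPM in untreated. miR-375 was the 1 of 9 tested that passed, beside 14.4% of all 195 tested entries. It was lower at 313.6 ± 35.7 CPM in ETBF and 471.4 ± 95.6 CPM in untreated (edgeR, adjusted p = 0.0432), while limma-voom called 0 of these 9. Of the 9 log2 fold changes 7 were negative and 2 positive. They were -0.31 for miR-203a and miR-192-5p and -0.29 for miR-194-5p. For miR-200a-3p, miR-200b-3p, miR-200c-3p and miR-429 they were -0.06, -0.03, 0.01 and 0.02, so the lower sum does not describe every marker. Of stromal markers 8 of 9 were tested and 0 passed, at 13223 to 14492 CPM in ETBF and 15401 to 17344 CPM in untreated, with miR-199a-3p (5382 ± 246.3 CPM in ETBF, 6189 ± 455.1 CPM in untreated) and miR-143-3p (3428 ± 423.4 CPM in ETBF, 3808 ± 557.8 CPM in untreated) the most abundant as deposited. The miR-199a-3p count is the one that stood at 2 times that of miR-199b-3p, and divided by its 2 loci it would lie below miR-143-3p. Muscle and liver markers, led by miR-1 and miR-122-5p, reached 20459 to 23592 CPM in ETBF and 25253 to 26344 CPM in untreated, with 0 of 5 tested passing and miR-208b-3p at 0 in each library. The muscle marker miR-1 averaged 15856 ± 1631 CPM in ETBF and 18228 ± 881.1 CPM in untreated (SD, n = 3 each). That is above miR-203a, the most abundant epithelial marker, and the source of these entries was not tested. Blood-cell markers, led by miR-142-5p and miR-486-5p, reached 527.8 to 697.1 CPM in ETBF and 669.3 to 737.5 CPM in untreated, with 0 of 5 tested passing. In the stromal, muscle and liver, and blood-cell lists there were 2, 2 and 1 entries at an unadjusted p under 0.05, and DESeq2 and limma-voom called 0 as edgeR did. Among all 195 tested entries 66 had an unadjusted p under 0.05, and 14.4% passed by edgeR. The epithelial, stromal, and muscle and liver sums of CPM were lower in each titled ETBF library than in each titled untreated library. Taken singly, 39.0% of all tested entries (76 of 195) also had groups that did not overlap in CPM. The levels of miR-29b-3p went the opposite way to these sums. The miR-29a-3p mean was also lower in ETBF, but its groups overlapped. Titled untreated replicate 1 had the lowest miR-29a-3p (3104 CPM) and the highest miR-203a (14502 CPM) and miR-1 (19246 CPM). For miR-192-5p and miR-122-5p the highest library was titled untreated replicate 3. The part of these markers in the miR-29 levels was not tested.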

How the data were processed

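Trimmomatic, FastQC, featureCounts and build GRCh37.p5 are named, per the submitters' processing notes. Not given in the sources used here: versions, aligner, miRNA annotation and the treatment of multi-locus reads. Each deposited file lists unnormalised counts by mature miRNA. Per the labels' protocols, 100 ng of total RNA went into each library; they name a TruSeq RNA kit and miRNA libraries, and how small RNAs were selected is not described. Whether replicates were separate cultures is not labelled; the spread behind each p-value may be technical.

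Entries passing edgeR's filterByExpr (minimum count 10) numbered 195 of 2575. They were scaled by TMM and tested together by edgeR's quasi-likelihood test, and p-values were adjusted after Benjamini and Hochberg. Each standard error is the log2 fold change's size divided by the root of its F statistic. Ratios were tested by exact permutation. Named are all miR-29 entries, the 3 entries most like each 3p arm, the 2 most abundant and any called entry of each list, and checks of multi-locus counting. Entries without an arm in their name (miR-1, miR-203a, miR-375) stand for the listed 3p arms. Members and lists were chosen with earlier results of these data known. The script was tested on simulated data. For the edgeR fit those counts had the same relative spread for every entry. They did not model the uneven structural RNA shares or the wide untreated spread of miR-29a-3p. Alternatives covered scaling, filters, DESeq2, limma-voom, a replicate block, copies collapsed and each replicate left out. Summing miR-29a-3p with miR-29c-3p was added after the data were seen. Versions were DESeq2 1.42.0, limma 3.58.1 and edgeR 4.0.16 under R 4.3.3.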

Additional observations from a re-analysis of the deposited data

How the results depend on the processing

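Over 18 settings, the main one included, miR-29a-3p had log2 fold changes from -0.44 to -0.11 and passed in 1, without untreated replicate 1; that range is also the one over single replicates left out. miR-29b-3p had 0.29 to 0.49 and passed in 2, at 0.48 with upper-quartile scaling and 0.46 without the structural RNA entries. The log2 ratio of mean CPM of miR-29c-3p, 0.45, ran from 0.34 to 0.65, moving by less than its replicate SD of 0.31. The difference for miR-29a-3p over miR-29c-3p and over miR-29b-3p kept its sign in each setting. That for miR-29c-3p over miR-29b-3p, 0.06, was -0.00947 with a pseudocount of 1 and ran from -0.13 to 0.25 with single replicates left out, negative without ETBF replicate 2 (-0.06) and without untreated replicate 1 (-0.13). Calls over all entries, 28 (21 higher, 7 lower), were 51 with no filter, 42 (36 and 6) with upper-quartile scaling, 34 (30 and 4) without structural RNA entries, and 17 to 59 with single replicates left out: 59 without ETBF replicate 1, and 17 without ETBF replicate 3 or untreated replicate 3. The cause was not tested. Replicate numbers were shared only by name: same-numbered deviations correlated at 0.18, 0.10 and 0.05, and ETBF replicate 3 correlated best with another number. The replicate block gave 38 calls, with miR-29b-3p at 0.41 (edgeR, adjusted p = 0.0502) and miR-29a-3p at -0.21 (0.281). Depth limits miR-29c-3p and the 5p arms.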
